A study of Mus musculus with 2 samples.

Results

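Myc and 44 genes of ribosome biogenesis in the nucleolus were followed in sorted cells of the mouse stomach. The genes were chosen by name: the transcription factor Myc, subunits of RNA polymerase I, nucleolar chaperones, the protein parts of the small nucleolar ribonucleoproteins (snoRNPs), and processing factors of the small and the large ribosomal subunit. All 45 were among the 27725 gene names on the array. The array file itself names 43 of them so, while Nop56 is listed under its older symbol Nol5a and Nop58 under Nol5. A gene was measured when the brighter of the compared populations was well above background on both arrays, which held for 38 of the 45 genes and for 7830 genes in all.

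RNA came from the pylorus, at the lower end of the stomach. Tissue of 20 mice was pooled; they carried the Lgr5-EGFP-ires-CreERT2 knock-in, in which the Lgr5 promoter drives green fluorescent protein (GFP) and a tamoxifen-inducible Cre recombinase. An inducing agent and the age of the mice are not given in the sources used here. Cells with high GFP (GFPhigh) and cells with low GFP (GFPlow) were sorted from the same tissue, so both populations carry the knock-in and neither is a wild-type control. From each population 150 ng of total RNA was amplified and labelled, and the pair was hybridised to 2 arrays with the dyes exchanged: GFPhigh carried Cy3 on array 1 and Cy5 on array 2. These arrays repeat 1 comparison of 1 RNA pair and count as 1 replicate. The SDs below are over the 2 arrays and cover technical spread only, and no test between the populations was possible. In such bulk RNA, fewer cells of a type and less RNA per cell cannot be told apart.

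Ribosomes are assembled in the nucleolus. RNA polymerase I makes a long ribosomal RNA precursor, snoRNPs direct the chemical modification of its bases and riboses, and a large series of factors cuts and folds it together with ribosomal proteins into a small and a large subunit. Myc, which binds E-box DNA as a dimer with Max, is known to raise the transcription of RNA polymerase I and of many genes of this pathway, and the pathway is most active in growing and dividing cells. In the stomach, Lgr5 marks cells at the base of the pyloric glands, while surface mucous (pit) cells lie higher in the unit.

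Each array gave 43379 gene spots. The GFPhigh channel was well above background at 28.6% of them on array 1 and 18.7% on array 2, and the GFPlow channel at 25.1% and 31.7%. Lgr5 checked the sort, with a log2 ratio of GFPhigh over GFPlow of 2.33 on array 1 and 2.24 on array 2. Gastric epithelial markers were measured for 8 of 10 genes, with a median log2 ratio of 0.04; they went both ways, with Krt19 at -2.24 ± 0.04, Krt8 at -1.19 ± 0.99, Cdh1 at -0.16 ± 0.11 and Foxa2 at 0.29 ± 0.36. No marker of leukocytes (0 of 8) or endothelium (0 of 3) was measured, and of 5 fibroblast and 3 smooth muscle markers only Col1a2 and Acta2 were.

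Most of the biogenesis genes were lower in GFPhigh, by modest amounts. The log2 ratio of GFPhigh over GFPlow lay below 0 on both arrays for 34 of the 38 measured genes, or 89.5%, against 36.6% of all measured genes. Their median ratio was -0.66, with -0.58 on array 1 and -0.72 on array 2, where the median of all measured genes was -0.06. A value at or below that of the list's median was found for 10.1% of all genes. The middle of the list, between its quartiles, ran from -0.87 to -0.47, and the same range for all genes ran from -0.34 to 0.26. Rrp1b and Utp18 were above 0 on both arrays, where 28.1% of all genes were, and Surf6 and Imp3 had opposite signs on the arrays.

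Fewer genes passed a fixed fold. The genes at least 2-fold lower in GFPhigh on both arrays were Myc, Fbl, Nop56 and Nhp2, 4 of 38 or 10.5%, against 2.69% of all measured genes. None of the 38 was 2-fold higher on both arrays, where 1.76% of all genes were. At 1.5-fold, 13 genes (34.2%) were lower on both arrays, against 7.5% of all genes, and 2 (5.26%) were higher, against 5.59%. The genes just outside the 2-fold line included Ncl, with -0.97 on array 1 and -1.32 on array 2. Another 8 genes, Npm1, Nop58, Nop2, Nop16, Rrs1, Polr1a, Ebna1bp2 and Mrto4, likewise passed 2-fold on 1 array and not on the other. Of these, Nop58 and Mrto4 passed on array 2, where their GFPhigh signal was not well above background.

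**Figure D1:**
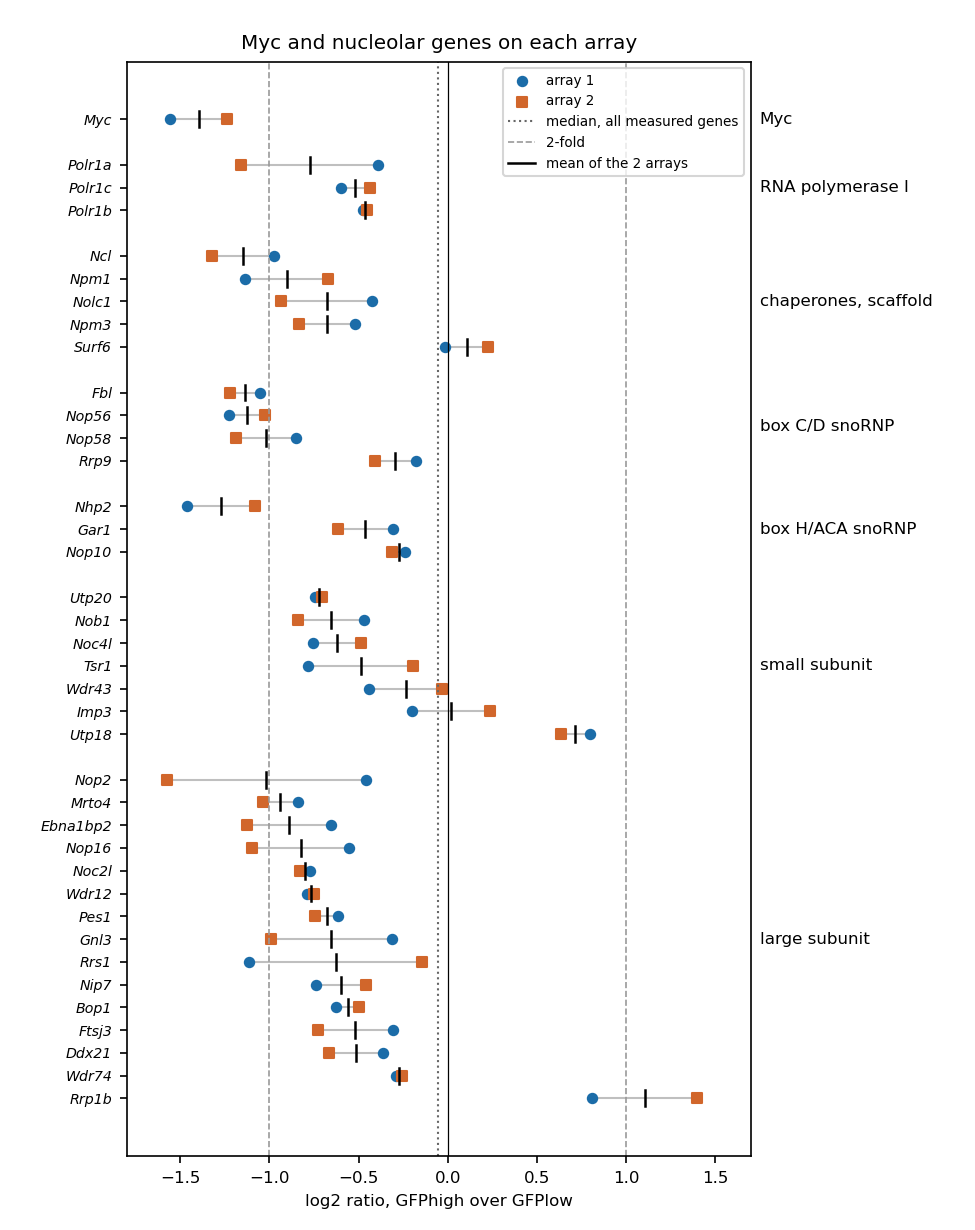
Log2 ratio of GFPhigh over GFPlow for each measured gene, grouped by role, with 1 point per array, a bar at the mean, dashed lines at 2-fold and a dotted line at the median of all measured genes. Of 38 genes, 34 lie left of 0 on both arrays, and Rrp1b and Utp18 lie right of 0 on both.

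The filter bears on these counts. All 38 genes were well above background in GFPlow on both arrays, but in GFPhigh only 25 were so on both arrays and 10 on 1 array. A gene that passed through GFPlow alone had to be lower in GFPhigh. Among the 25 genes above background in all 4 channels, 21 were below 0 on both arrays (28.6% of all such genes), with a median of -0.68 against 0.04 for all genes measured so. Of these 25, Fbl, Nhp2 and Nop56 were 2-fold lower on both arrays, beside 139 of 6235 genes measured so. The 1.5-fold count was not repeated on them. Gar1, Gnl3 and Ftsj3 were not well above background in GFPhigh on either array. Their fitted ratios were 1.38-fold, 1.57-fold and 1.43-fold lower there, and the size is uncertain. Without background subtraction their log2 ratios were -0.27, -0.34 and -0.23. Their dim signals already lay above the lowest level of any detected probe, so no bound apart from the fitted folds was obtained.

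**Figure D2:**
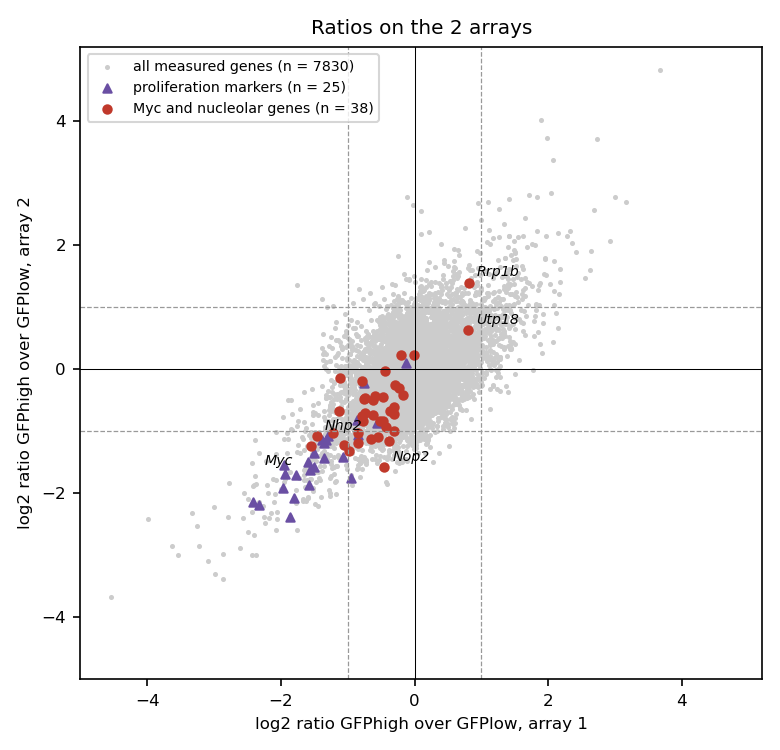
Log2 ratio on array 1 (horizontal) against array 2 (vertical) for all 7830 measured genes in grey 25 proliferation markers as violet triangles and the 38 genes of Myc and the nucleolus as red points, with dashed lines at 2-fold. Of the red points 4 lie past both lines on the lower side, Myc, Fbl, Nop56 and Nhp2, and 0 on the upper side.

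Myc itself was lower in GFPhigh on both arrays. Its level, as log2 signal per channel, was 7.00 in GFPhigh and 8.56 in GFPlow on array 1, and 7.36 in GFPhigh and 8.59 in GFPlow on array 2. The populations did not overlap, and GFPhigh was well above background on array 1 only. Array 1 gave a log2 ratio of -1.56 and array 2 one of -1.24, with a mean of -1.40 ± 0.23 (SD over 2 arrays), or 2.63-fold. That size depends on the processing: Myc read -1.03 without background subtraction, which ended the 2-fold call on both arrays, and -2.47 with signals as processed by the scanner software. The probe behind it (mm9 chr15:61821516-61821576, forward strand) was printed at 10 spots. Every spot was below 0, from -1.87 to -1.18 on array 1 and from -1.72 to -0.85 on array 2. A further probe for the same transcript, above background in GFPlow only, read -0.70 and -0.92. The third was well above background in a single channel and was not kept.

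**Figure D3:**
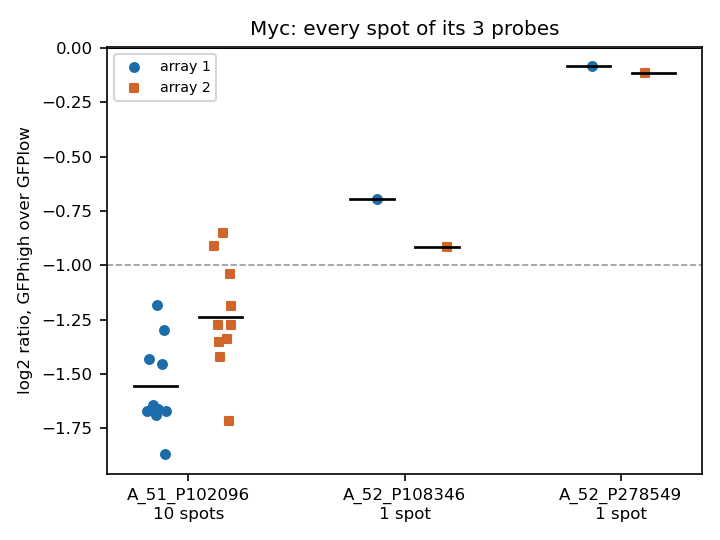
Log2 ratio of GFPhigh over GFPlow at each spot of the 3 Myc probes, by array, with a bar at each mean and a dashed line at 2-fold. The 10 spots of the probe in use lie between -1.87 and -0.85, all below 0.

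Myc's partners and rivals for E-box DNA moved less. Of the 13 genes of the Myc family and Max network, 9 were measured, with a median of 0.06. Of the 9, 0 passed 2-fold in either direction, where 2.69% of all genes were lower and 1.76% higher. On both arrays 2 were below 0 (36.6% of all genes), and 5 had opposite signs. With the scanner software's signals or the value table, 2 were 2-fold higher on both arrays, as were 352 of all 7851 genes measured so. Mycn and Mycl, the other growth-promoting Myc genes, were not measured. The member farthest from 0 was Mxd4, a repressor that pairs with Max, with 0.93 and 0.74 on the arrays (mean 0.84 ± 0.14). Mxd1, of the same family, read 0.44 ± 0.12. Mlx and Mlxipl, partners in a related network that responds to glucose, read -0.47 ± 0.51 and -0.34 ± 0.13.

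Genes known as Myc targets outside the nucleolus were mostly lower in GFPhigh as well. Of 30 such genes, 27 were measured and 23 were below 0 on both arrays, where 36.6% of all genes were. On both arrays 3 were 2-fold lower, against 2.69% of all genes, and 0 were higher, with a median of -0.59. The 3 were Hspd1, a mitochondrial chaperonin (-1.37 ± 0.03), C1qbp, a mitochondrial matrix protein (-1.37 ± 0.05), and Ran, the GTPase of nuclear transport (-1.23 ± 0.30). Odc1, which starts polyamine synthesis, read -1.11 and -0.96.

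The subunits of RNA polymerase I were all below 0 and none passed 2-fold on both arrays; their median was -0.52. Polr1a, the largest subunit, differed between the arrays, with a ratio of -0.39 on array 1 and -1.16 on array 2 (mean -0.77 ± 0.55). Its level was 8.68 in GFPhigh and 9.07 in GFPlow on array 1, and 8.29 and 9.45 on array 2. Polr1b, which forms the catalytic centre with Polr1a, was steadier at -0.48 and -0.46, from 7.41 and 7.89 on array 1 and 7.54 and 7.99 on array 2. Polr1c, shared with RNA polymerase III, read -0.60 and -0.44. Each subunit was lower in GFPhigh on each array. Of 14 other genes of the polymerase I machinery, 7 were measured, with a median of -0.37. Of the 7, 6 were below 0 on both arrays (36.6% of all genes) and 0 passed 2-fold (2.69% of all genes were lower). Tcof1, the treacle protein that supports ribosomal RNA transcription, read -0.66 ± 0.33, Taf1d of the promoter selectivity factor -0.59 ± 0.12, Polr1d -0.58 ± 0.06 and the initiation factor Rrn3 -0.37 ± 0.26.

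Among the nucleolar chaperones and scaffold proteins, 4 of 5 were lower on both arrays (36.6% of all genes), with a median of -0.68. Ncl (nucleolin), an abundant binder of precursor ribosomal RNA, had the largest ratio, -0.97 on array 1 and -1.32 on array 2 (mean -1.15 ± 0.25). Its level was 10.59 in GFPhigh and 11.56 in GFPlow on array 1, and 10.53 and 11.86 on array 2. Ncl was read by 3 kept probes, all below 0, with means within 0.41 of each other. A pair of them shares 40 bases, shown in capitals because the same stretch of the transcript is then read by separate spots. The probe in use lies at mm9 chr1:88247602-88247992 on the reverse strand, a span longer than the probe itself, and its overlapping neighbour at chr1:88247953-88248012.
Ncl neighbour probe: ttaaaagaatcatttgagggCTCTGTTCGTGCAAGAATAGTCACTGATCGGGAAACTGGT
Ncl probe in use: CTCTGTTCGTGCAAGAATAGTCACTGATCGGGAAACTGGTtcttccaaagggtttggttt
The mean ratio was -1.01 at the neighbour and -1.15 at the probe in use.

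Npm1 (nucleophosmin), the histone and ribosome chaperone of the outer nucleolus, read -1.14 and -0.67 (mean -0.90 ± 0.33). Npm3, of the same family, read -0.52 and -0.83, and Nolc1, a chaperone of snoRNPs, -0.42 and -0.93. Surf6, a nucleolar protein that binds nucleic acid, was the exception with -0.01 and 0.23. Its populations overlapped, at 8.26 in GFPhigh and 8.27 in GFPlow on array 1 and 8.39 and 8.17 on array 2.

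The box C/D snoRNP, which adds methyl groups to ribose, had a median of -1.07. It was the lowest among the roles with several genes, but not with the scanner software's signals or the value table, where box H/ACA read -1.41 and box C/D -1.24 and -1.23. Its 4 genes were all below 0 on both arrays (36.6% of all genes), and 2 were 2-fold lower on both (2.69% of all genes). Fbl (fibrillarin), the methyltransferase itself, read -1.06 and -1.22 (mean -1.14 ± 0.12), from levels of 12.08 in GFPhigh and 13.13 in GFPlow on array 1 and 11.90 and 13.13 on array 2. Nop56, part of the scaffold, read -1.23 and -1.02 (mean -1.13 ± 0.14), from 9.95 and 11.17 on array 1 and 9.90 and 10.92 on array 2. Nop58, which pairs with Nop56, read -0.85 and -1.19 (mean -1.02 ± 0.24). The mean ratios of these 3 core proteins differed by less than the SD of Nop58 between arrays. Rrp9, found only in the U3 particle, was nearer to 0 with -0.18 and -0.41, from 7.33 and 7.51 on array 1 and 6.79 and 7.19 on array 2.

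The box H/ACA snoRNP, which turns uridine into pseudouridine, was less even. Nhp2, an RNA-binding core protein, read -1.46 and -1.08 (mean -1.27 ± 0.27), the lowest ratio after Myc. Its level was 9.43 in GFPhigh and 10.90 in GFPlow on array 1, and 9.68 and 10.76 on array 2, with no overlap. Nop10, the smallest core protein, had a ratio closer to 0, with -0.24 and -0.31 (mean -0.27 ± 0.05), from 12.25 and 12.48 on array 1 and 12.15 and 12.46 on array 2. Gar1 read -0.31 and -0.62 on a signal measured in GFPlow only. Dkc1 (dyskerin), the enzyme of the particle, was not measured.

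**Figure D4:**
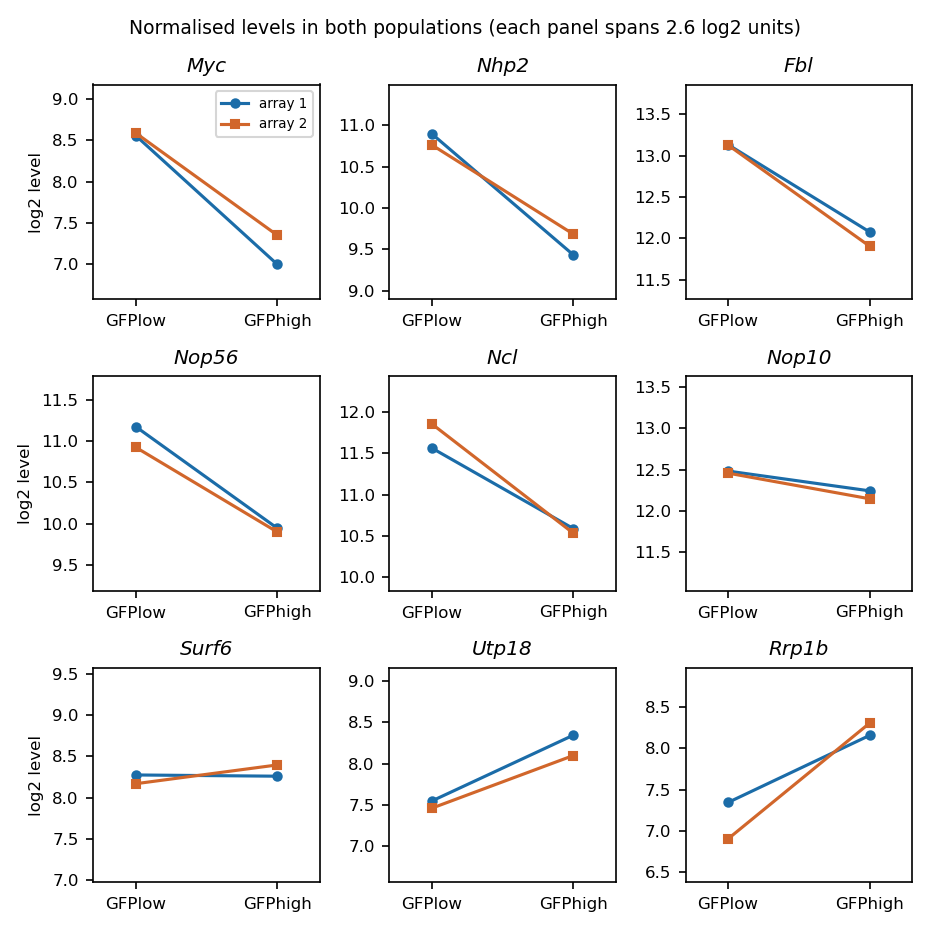
Log2 signal per channel of 9 of the genes whose levels are given, with GFPlow and GFPhigh joined on each array and the same span of log2 units in each panel. Myc, Fbl, Nop56 and Nhp2 sit lower in GFPhigh on both arrays, while Rrp1b and Utp18 sit higher.

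For small subunit processing, 7 of 11 genes were measured, with a median of -0.49. Of the 7, 5 were below 0 on both arrays (36.6% of all genes) and 0 passed 2-fold (2.69% of all genes were lower). Utp20, a scaffold of the small subunit processome, read -0.75 and -0.70 (mean -0.72 ± 0.03), from 7.41 in GFPhigh and 8.15 in GFPlow on array 1 and 7.45 and 8.15 on array 2. Nob1, the nuclease of the last cut of small subunit RNA, read -0.47 and -0.84, and Noc4l, which acts in nuclear steps, -0.75 and -0.49. Tsr1, of the cytoplasmic steps, read -0.78 and -0.20, and Wdr43, of the early processome, -0.44 and -0.03. The last rests on a probe for a cDNA clone, and a dimmer kept probe for a RefSeq transcript of Wdr43 read -0.54 and -0.83.

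Imp3 and Utp18, both parts of the early processome, were not lower on both arrays. Imp3, of the U3 particle, showed no common direction and read -0.20 and 0.24, with overlapping levels of 9.88 and 10.07 on array 1 and 10.14 and 9.90 on array 2. Utp18 was higher in GFPhigh on both arrays, with 0.80 and 0.64 (mean 0.72 ± 0.11), from 8.34 in GFPhigh and 7.55 in GFPlow on array 1 and 8.10 and 7.46 on array 2. Its sign depends on the centring, as it read -0.06 when the mean of the spike-in probes was set to 0. The other Utp18 probe, for the same transcript, did not pass the filter and read -0.18 and 0.12 on dim signals. The higher value of Utp18 rests on the kept probe alone.

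Large subunit processing was the largest role, with 15 of 17 genes measured and a median of -0.65. Of the 15, 14 were below 0 on both arrays (36.6% of all genes) and 0 passed 2-fold on both (2.69% of all genes were lower). Pes1, Bop1 and Wdr12 form a single complex. At the probes in use they were close together, with -0.62 and -0.74, -0.62 and -0.50, and -0.79 and -0.75. A dimmer kept probe for the same Pes1 transcript was nearer to 0, with -0.38 and -0.14. Pes1 read -0.47 as a mean over probes, so its closeness to Bop1 and Wdr12 depends on the probe. Noc2l, which acts in the transport of precursors through the nucleus, was even between the arrays with -0.77 and -0.83. Mrto4, which holds the place of a stalk protein, read -0.84 and -1.04, and Ebna1bp2, an early assembly factor, -0.66 and -1.13. These 6 genes were lower in GFPhigh on each array.

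Other genes of the large subunit had ratios that differed more between the arrays. Nop2, a methyltransferase of ribosomal RNA, read -0.46 and -1.58 (mean -1.02 ± 0.79). Rrs1, which helps to recruit a small ribosomal RNA, read -1.11 and -0.14 (mean -0.63 ± 0.69). Gnl3 (nucleostemin), a GTPase known from stem and tumour cells, read -0.32 and -0.99 on a signal measured in GFPlow only. All 3 were below 0 on both arrays, and within this role the arrays differed most on them. Nop16 read -0.55 and -1.10, the helicase Ddx21 -0.36 and -0.67, Nip7 -0.74 and -0.46, the methyltransferase Ftsj3 -0.31 and -0.73, and Wdr74 -0.29 and -0.26. Wdr74 was the nearest to 0, with levels of 7.87 in GFPhigh and 8.16 in GFPlow on array 1 and 8.06 and 8.31 on array 2.

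Rrp1b was the gene of this role that was higher in GFPhigh, with 0.81 and 1.40 (mean 1.10 ± 0.42). Its level was 8.15 in GFPhigh and 7.34 in GFPlow on array 1, and 8.30 and 6.90 on array 2. The kept probe was designed to a cDNA clone. The probes designed to its RefSeq transcript and a probe for another clone did not pass the filter. On their dim signals these probes read below 0 on both arrays, with means of -0.015, -0.331 and -0.175. The higher value of Rrp1b therefore rests on the kept probe alone.

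The 7 genes that were not measured were Dkc1, Noc3l, Ddx18, Rrp12, Ddx10, Imp4 and Utp15. Without the filter their mean ratios lay between -0.28 and 0.13, on signals near background, and have no order. Where a gene had several kept probes, as for Myc, Ncl, Npm1, Noc2l, Pes1, Tsr1 and Wdr43, all of them were below 0 and their means lay within 0.59 of each other.

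Further biogenesis factors, listed from textbook knowledge, had medians below 0 as well, closer to 0. Among 38 other small subunit factors 25 were measured, 20 were below 0 on both arrays (36.6% of all genes were) and 0 passed 2-fold on both, with a median of -0.45. The largest ratios were those of Rcl1 (-1.02 ± 0.07), Utp11 (-0.99 ± 0.45), Wdr46 (-0.90 ± 0.01) and Heatr1 (-0.80 ± 0.15), all of the early processome. Of 42 other large subunit factors 34 were measured, 24 were below 0 on both arrays, 10 had opposite signs and 0 passed, with a median of -0.36. Rrp15 read -1.03 ± 0.17, Ppan -0.81 ± 0.41, Brix1 -0.79 ± 0.77 and Eif6, which keeps the subunits apart, -0.65 ± 0.44.

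The RNA exosome, which trims ribosomal RNA ends, and RNase MRP, which cuts the precursor, had 21 of 23 genes measured, with a median of -0.54. Of the 21, 15 were below 0 on both arrays, where 36.6% of all genes were, and 6 had opposite signs. On both arrays 0 passed 2-fold, where 2.69% of all genes were lower. The exosome subunits Exosc6 (-1.15 ± 0.43), Exosc2 (-1.07 ± 0.31) and Exosc8 (-1.04 ± 0.11) and the nuclease Dis3 (-1.15 ± 0.50) had the largest ratios.

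**Figure D5:**
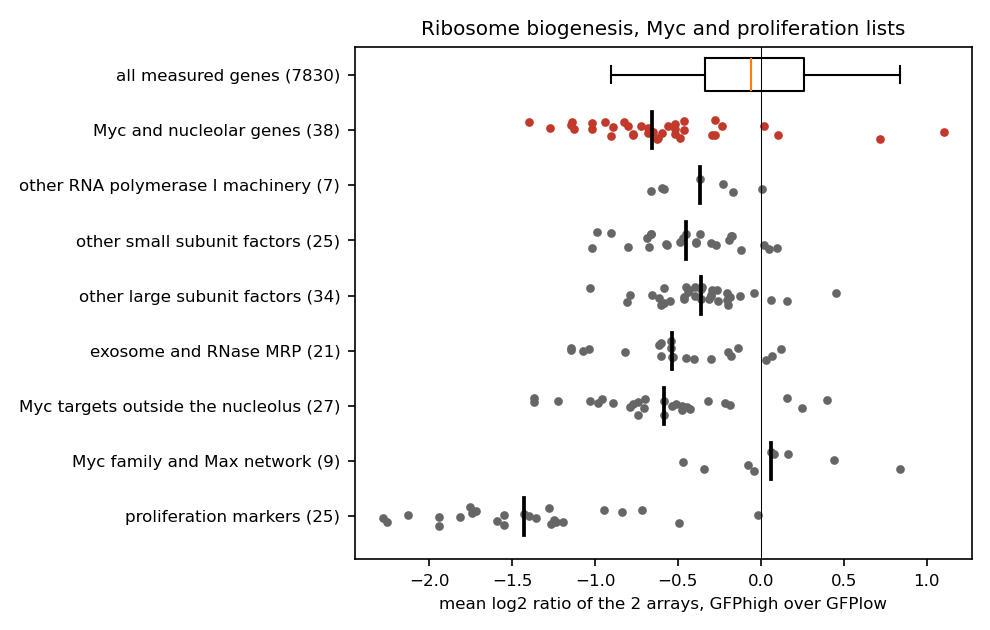
Log2 ratio of GFPhigh over GFPlow (mean of the arrays) of every measured gene of the 45 and of the other lists, with a bar at each median; the box for all genes spans the quartiles and its whiskers the central 90%. The medians of the lists of ribosome biogenesis lie between -0.66 and -0.36, that of the Max network at 0.06 and that of the proliferation markers at -1.43.

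Other groups of genes moved with the same contrast. Of 26 proliferation markers 25 were measured and 24 were below 0 on both arrays, where 36.6% of all measured genes were. On both arrays 19 were 2-fold lower, against 2.69% of all genes, and 0 higher, with a median of -1.43. Mki67, present in cycling cells, read -2.28 ± 0.20, the mitotic genes Birc5 and Cenpe -2.26 ± 0.10 and -2.13 ± 0.37, and Uhrf1, of replicating DNA, -1.94 ± 0.05. All 4 pit cell markers were 2-fold lower on both arrays, with a median of -2.77, led by Gkn2 (-3.24 ± 0.55) and Tff1 (-3.20 ± 1.12). The enteroendocrine markers were all below 0 on both arrays, and 4 of 5 were 2-fold lower, with a median of -1.68. Conversely, all 6 markers of stem cells and the gland base were 2-fold higher on both arrays, where 1.76% of all genes were. So were all 3 chief cell markers, with a median of 3.22. The parts of these cell types and of dividing cells in the lower biogenesis genes were not tested.

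The promoters of the genes were searched for the E-box CACGTG, which reads alike on both strands, and for the variant CACGCG on either strand, since Myc and Max bind such sequences. RefSeq promoters of assembly GRCm38.p6, from 250 bases before to 50 after the start, were at hand for 39 of the 45 genes; Bop1, Fbl, Myc, Npm1, Rrp12 and Rrs1 had none. CACGTG stood in 7 of the 39 (17.9%), namely Imp4, Nop2, Pes1, Tsr1, Utp18, Utp20 and Wdr43. It stood in 7.15% of all 32851 promoters, counted singly, and in 12.4% of the 5880 measured genes with an entry. CACGCG stood in 11 of the 39 (28.2%), against 20.9% of measured genes. Of the 6 measured genes with CACGTG, 5 were below 0 on both arrays (Nop2, Pes1, Tsr1, Utp20 and Wdr43) and Utp18 was above 0, and of the 27 measured genes with an entry and no CACGTG 24 were below 0 on both. Nop2, with -1.02, and Utp18, with 0.72, are shown with Nip7 and Nolc1, which hold the variant, as the 120 bases before the start, 5′ to 3′ on the gene's strand, with the motif in capitals.
Nop2, GRCm38.p6 chr6:125131763-125131882, forward strand: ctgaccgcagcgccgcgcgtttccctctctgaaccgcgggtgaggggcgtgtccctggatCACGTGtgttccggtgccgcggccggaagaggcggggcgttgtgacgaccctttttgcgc
Utp18, GRCm38.p6 chr11:93885767-93885886, reverse strand: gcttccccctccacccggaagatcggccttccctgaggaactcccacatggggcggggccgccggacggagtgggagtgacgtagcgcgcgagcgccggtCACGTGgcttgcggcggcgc
Nip7, GRCm38.p6 chr8:107056757-107056876, forward strand: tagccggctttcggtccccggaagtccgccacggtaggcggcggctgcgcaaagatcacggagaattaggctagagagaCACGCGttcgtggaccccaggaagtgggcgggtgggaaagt
Nolc1, GRCm38.p6 chr19:46075727-46075846, forward strand: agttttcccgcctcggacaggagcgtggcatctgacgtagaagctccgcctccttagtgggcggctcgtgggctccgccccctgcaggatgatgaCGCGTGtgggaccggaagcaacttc
The capitals of Nolc1, CGCGTG, are the variant read on the other strand. A match is a run of letters and was not tested as a binding site.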

How the data were processed

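The authors deposited the scanner output of 2 arrays, with mean spot intensity and median local background intensity per channel, per the file headers. The deposited log10 ratio is of processed Cy5 over Cy3 signal, and a value table of the series holds it turned to GFPhigh over GFPlow. It differed by at most 0.005 and has column medians of 0.0188 and -0.0458. The headers name Feature Extraction 10.5.1.1 and probe positions of build mm9, and the submitters' processing notes name version 9.5.3.

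Background correction of the mean signals used normexp with an offset of 50 in limma 3.58.1 (R 4.3.3), which pulls dim ratios towards 0. Loess normalization within arrays gave control spots a weight of 0. Flagged spots were left out, and 0 gene spots were saturated. After ratios were turned by the dyes in the labels, spots of a probe were averaged. Probes passed where the brighter population exceeded background on both arrays, and a gene took its passing probe of highest average signal. Aquantile normalization after loess gave the level per channel, and no level of a gene is set against another's. A bound was sought for genes above background in GFPlow only. It set the bright population's mean against the dim one's. Dim levels were raised on each array to at least the lowest level of any probe above background. The steps were tested on simulated data.

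Probes were named through RefSeq (GRCm38.p6, names only): 25097 by accession, 166 by another accession, 6233 by symbol and 1603 by an older symbol, while 8075 kept the name in the file. The genes and lists were chosen with earlier results of these data known. All measured genes of the 45 are named, with levels for Myc, the 2-fold genes and the largest and smallest absolute mean ratio per role, and up to 4 genes of largest absolute ratio per other list. The number of arrays, 2 from 1 RNA pair, limits the precision. Alternatives covered background, signals, centring, filter, flags, probe rule, fold, value table and each array alone.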

Additional observations from a re-analysis of the deposited data

How the results depend on the processing

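The list stayed below all genes under every alternative run, with its median 0.48 to 0.90 lower than theirs, but how many genes passed 2-fold depended on the setting. Without loess, centring each array on its median put the median of all genes at -0.49 and that of the list at -1.18. Myc read -1.84, and 2 genes were lower, beside 215 of all genes. Setting the mean of 10 spike-in probes to 0, a shift of 0.78, gave -1.43 for the list, -2.18 for Myc and 30 genes lower, beside 1612 of all genes. Single spike-in probes lay far apart before this shift, from -2.52 to 3.66 on array 1 and from -2.04 to 4.31 on array 2. Their means over the 2 arrays, from which the shift was taken, lay between 0.39 and 1.08. Under both centrings Imp3 (-0.66 and -0.76) and Surf6 (-0.38 and -0.67) fell below 0. The scanner software's processed signals gave a median of -0.94, Myc at -2.47, 8 genes lower and 2 higher. Of all 7851 genes measured so, 511 were lower and 352 higher. Fbl read -0.96 there and was no longer 2-fold. The value table gave -0.96 for the list, -2.47 for Myc, 7 genes lower and 2 higher, beside 508 and 352 of all genes. Of its 7 lower genes, 2 were among the original 4. Myc read -1.03 without background subtraction, which ended its 2-fold call, and -1.10 as a mean over probes. Requiring both populations above background left 25 genes, without Myc, and 3 lower, beside 139 of all 6235 genes measured so. A threshold of 1.5-fold gave 13 lower and 2 higher, beside 587 and 438 of all genes. Array 1 alone gave 6 genes lower and 0 higher, beside 400 and 349 of all genes. Array 2 alone gave 11 lower and 1 higher, beside 499 and 371 of all genes. The median on a single array was -0.70 to -0.57, and Myc read -1.56 to -1.24. Keeping flagged spots or dropping the filter on dim probes changed no call among the 45 genes. The median without Myc was -0.65. No paired analysis was possible because both arrays hold 1 RNA pair and no test was made. Dim GFPhigh signals limit the size of the ratios.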
